A study of Solanum tuberosum with 11 samples.

Results

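The 120 transcripts described here lie in loci of 15 kb or more, out of 35091 transcripts in the authors' deposited table of potato tuber RNA. A transcript was a member where the end minus the start of its locus was at least 15000, a rule that uses no measured level. The 120 fall in 69 distinct loci, because 73 of them share their coordinates with at least 1 other transcript and 47 are alone in theirs.

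RNA was sequenced from thin discs of periderm with the apical bud, cut from intact dormant minitubers of the potato cultivar Atlantic (Solanum tuberosum) grown in a greenhouse. Every tuber had been injected with 5 µl of the solvent DMSO, either alone or with 10 µg of NG, which the labels spell 1-(alpha-ethylbenzy)-3-nitroquanidine. The labels list 3 DMSO libraries at zero time, 3 NG libraries of day 1, 2 of day 4 and 3 of day 7. In the table the 4 conditions are Controls, NG 1-Day, NG 5-Days, then NG 7-Days, with 1 value per condition, so NG 5-Days keeps that name here and is not equated with day 4. No DMSO library of a later day is on that list, so NG and elapsed time cannot be told apart in any comparison. With 1 value per condition, no spread between libraries could be computed. The sources used here do not give the number of libraries behind each condition, their depth, the genome build, or whether libraries came from separate tubers. The identifiers are paired with no gene names, so neither the tissue label nor any gene's role could be checked against marker genes.

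Substituted nitroguanidines are known as synthetic cytokinins, plant hormones that promote cell division and can end tuber dormancy, the period in which buds do not grow. A locus is the stretch of chromosome from the first to the last base of a gene, introns included. Introns are spliced out of the mature RNA, so a long locus need not give a long transcript. Most plant genes are compact, and long spans commonly come from long introns. A table of this kind may also give overlapping genes a common locus, and then the span belongs to the group and not to any single transcript.

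Sharing of coordinates was common among the long loci. Of the members, 60.8% shared a locus, against 6.85% of the transcripts in shorter loci. The 22 shared loci comprised 11 that held 2 transcripts, 5 that held 3 and 6 that held 5 or more, up to 8. Within them 1 transcript usually carried most of the RNA: the highest held a median of 74.9% of the locus's summed level, and over 80% of it in 8 of 22 loci. Of the 73 transcripts, 24 had a mean level under 0.2 and 4 were listed at 0 in every condition (PGSC0003DMG401024649, PGSC0003DMG401001309, PGSC0003DMG400035996 and PGSC0003DMG402031436). A pair or more at a mean level of 5 or above occurred in 9 of the 22 loci.

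**Figure D1:**
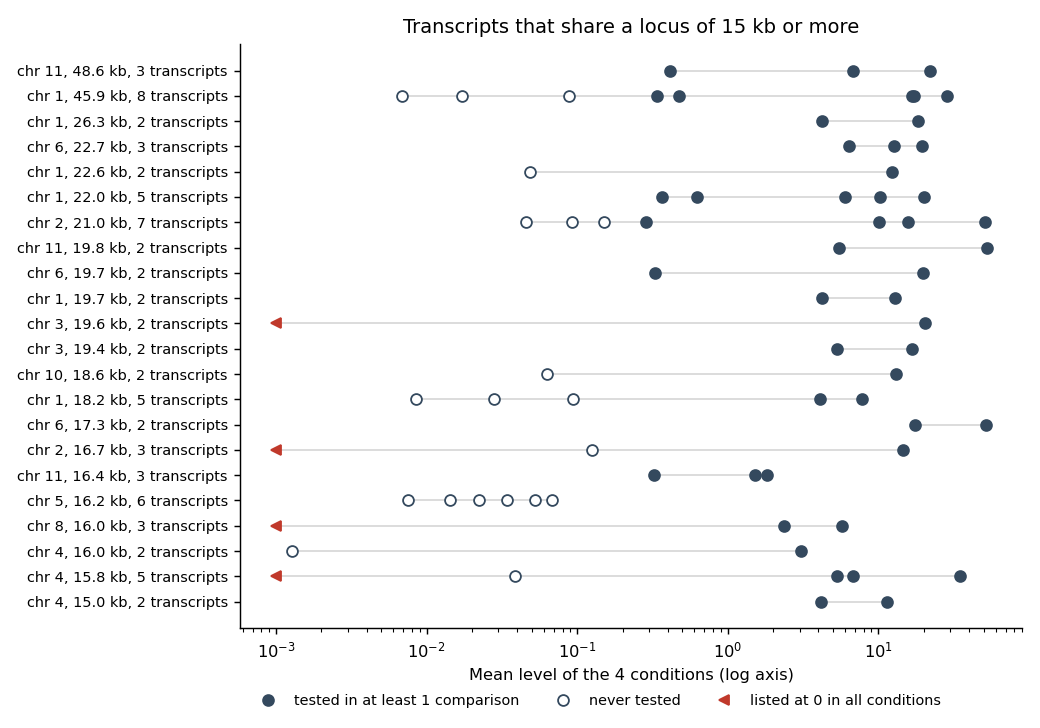
Mean level over the 4 conditions (log axis) of each transcript in the 22 shared loci, 1 row per locus, ordered by length; filled points were tested in at least 1 comparison, open points in none, and triangles were listed at 0 throughout. In 8 of the 22 rows the highest transcript holds over 80% of the summed level, and 9 rows have at least 2 transcripts at 5 or above. In the chromosome 5 locus all 6 transcripts lie below 0.1.

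The shared locus with the most transcripts, chr1:76288972-76334887, was an exception, in which the highest transcript held 45.1% of the summed level. Of its 8 transcripts 3 carried nearly all the RNA. PGSC0003DMG401025733 had levels of 30.6, 29.4, 28.2 and 26.9 (4 values in a row are always those of Controls, NG 1-Day, NG 5-Days, NG 7-Days), PGSC0003DMG400025734 had 16.1, 18.1, 17.8 and 15.4, and PGSC0003DMG400025735 had 18.8, 25.6, 12.03 and 12.4. The other 5 had mean levels under 0.5. At the opposite end, none of the 6 transcripts in chr5:4715176-4731327 was tested, with mean levels of 0.00754 to 0.0678. The levels are the authors' own, in a unit that the header does not name; such tables usually hold FPKM, which corrects for the length of the transcript and the size of the library.

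By the median, members were more highly expressed than transcripts as a whole. Their median levels were 10.4, 10.4, 11.5 and 10.6, where the medians over all transcripts were 0.949, 0.758, 0.941 and 1.06. In Controls 88 of the 120 were at 1 or more, which is 73.3% against 49.6% of all transcripts. The lone transcripts stood highest. All 47 were at 1 or more in every condition, with medians of 21.9, 18.2, 23.9 and 21.5, whereas the medians of the 73 that share a locus were 3.13, 2.54, 2.26 and 3.75. Together the members, 120 of the 35078 transcripts with usable levels, took 0.327%, 0.306%, 0.343% and 0.318% of the summed level in the 4 conditions. That is close to or below their share by number, so the excess was in the medians and not in the summed level. The next shorter loci were nearer to the members than the median transcript was. Among transcripts tested for NG 5-Days against Controls, the median of the mean level was 14.0 in members. It was 10.3 from 10 to under 15 kb, 11.1 from 5 to under 10 kb and 3.23 under 2 kb.

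The most abundant members were all alone in their loci. PGSC0003DMG400002759 (chr1:71271400-71288482) led with 154, 134, 154 and 171. PGSC0003DMG400002563 (chr3:47775242-47795405) followed with 110, 108, 108 and 104, values that span a 1.06-fold range. PGSC0003DMG400013343 (chr11:2219156-2236875) had 96.8, 86.1, 107 and 88.1. The remaining members of the top 5 had their lower levels in the later NG conditions. PGSC0003DMG400007677 (chr5:9239494-9255014) had 117 and 115 in Controls and NG 1-Day but 80.3 and 84.4 in the later conditions, and PGSC0003DMG400008939 (chr9:6694923-6710443) had 63.7 and 65.1, then 56.5 and 50.8. Neither passed the authors' deposited test in any comparison; for the first, NG 5-Days against NG 1-Day had a log2 fold change of -0.52 and an adjusted p of 0.155 in the authors' deposited table.

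Of the 5 longest loci, the 3 that hold a lone transcript showed little movement, and the 2 shared ones each held a transcript with a range over 2-fold. The longest of all, PGSC0003DMG400015233 (chr3:36371329-36428205, 56876 from start to end), had 24.5, 23.3, 26.8 and 24.1. PGSC0003DMG400013949 (chr8:21547031-21600957, 53926) had 13.0, 11.2, 14.7 and 13.1. PGSC0003DMG400009218 (chr11:8509178-8561942, 52764) had 11.7, 11.5, 12.02 and 11.6, the narrowest range of the lone members at 1.05-fold. In these 3 lone transcripts the lowest level was in NG 1-Day and the highest in NG 5-Days. The fourth longest locus, chr11:31970206-32018791 (48585), is shared by 3 transcripts and the fifth is the chromosome 1 locus of 8 described above. In the fourth, PGSC0003DMG403008663 had 21.9, 24.3, 21.8 and 19.9, PGSC0003DMG401008663 had 7.37, 3.15, 9.59 and 6.94, and PGSC0003DMG402008663 stayed under 0.7. For PGSC0003DMG401008663 the 3.05-fold difference between NG 5-Days and NG 1-Day came with a log2 standard error of 2.60 and an adjusted p above 0.99 in the authors' deposited table.

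Few members passed the authors' deposited test, which is taken here at an adjusted p under 0.05. It adjusts over all 6 comparisons together, and of the members 96 were tested in at least 1 comparison and 90 in all 6; the other 24 all share a locus. The table's own filter therefore kept all 47 lone transcripts and 49 of the 73 that share a locus. The discs are bulk tissue, so a lower level can mean fewer cells with the transcript or less of it per cell, and these cannot be told apart.

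Against Controls a single long locus was called. For NG 1-Day against Controls the authors' deposited table called 0 of 92 members, where it called 1.06% of all transcripts tested; 0 members also had an unadjusted p under 0.05, where 3.25% of all did. For NG 5-Days against Controls the authors' deposited table called 1 of 96 members, a rise, beside 1.47% of all transcripts called in either direction and 0.648% called as rises. For NG 7-Days against Controls it called 0 of 93, beside 0.0150% of all, and 0 members had an unadjusted p under 0.05, beside 0.366% of all. At the members' levels, the rates of shorter loci would give 0.964, 1.72 and 0.00955 calls in these 3 comparisons.

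Between the NG days the members' share of calls lay well below the background. Between NG 1-Day and NG 5-Days the authors' deposited table called 3 of 92 members (3.26%), 2 rises and 1 fall, where it called 20% of all tested transcripts, 13.1% as rises and 6.91% as falls. Between NG 1-Day and NG 7-Days the authors' deposited table called 1 of 91 members, a rise, beside 8.87% of all in either direction and 7.44% as rises. Between NG 5-Days and NG 7-Days the authors' deposited table called 0 of 94 members, beside 4.36% of all; 2 members (PGSC0003DMG400032202 and PGSC0003DMG400025737) had an unadjusted p under 0.05, beside 11.3% of all. Over the 6 comparisons 3 of 96 members (3.13%) were called at least once, against 22.0% of all transcripts tested at least once.

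Matching on level left this gap in place. Transcripts of loci under 15 kb were weighted over 10 classes of mean level so that they had the members' distribution. At the members' levels 20.3% of shorter loci were called from NG 1-Day to NG 5-Days, a rate that would give 18.6 calls among 92 where 3 were made. For NG 7-Days against NG 1-Day the matched share was 7.65%, which would give 6.97 calls where 1 was made, and for NG 7-Days against NG 5-Days it was 4.24%, or 3.99 calls where 0 were made. Against Controls the matched shares were 1.05% for NG 1-Day, 1.79% for NG 5-Days and 0.0103% for NG 7-Days. Among lone transcripts alone, from NG 1-Day to NG 5-Days, 2.27% of members and 21.5% of matched shorter loci were called; among those that share a locus the shares were 4.17% and 11.3%. No test of these differences between sets of transcripts was made, because transcripts are not replicates of a condition.

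Between the NG days the share of calls declined from class to class below the 15 kb limit too. At the members' levels, calls from NG 1-Day to NG 5-Days took 28.6% of tested transcripts in loci under 2 kb, 23.1% from 2 to under 5 kb, 13.9% from 5 to under 10 kb and 9.45% from 10 to under 15 kb. The same order held for NG 7-Days against NG 1-Day, with 11.4%, 8.71%, 5.28% and 2.74%, and for NG 7-Days against NG 5-Days, with 8.20%, 4.41%, 2.27% and 0.949%. The members as a whole stood lower still, at 3.26%, 1.10% and 0%. These classes mix lone and sharing transcripts unevenly. Among lone transcripts, at the lone members' levels, the first comparison had 32.4%, 24.3%, 12.7% and 10.9%, then 2.27% of members. NG 7-Days against NG 1-Day had 12.2%, 7.49%, then a level 4.19% and 4.16%, and 2.27% of members. NG 7-Days against NG 5-Days had 8.96%, 4.36%, 2.14% and 1.73%, and 0% of members. Within the long loci the few calls showed no such order: for NG 5-Days against NG 1-Day the shares were 3.70% from 15 to under 20 kb, 3.85% from 20 to under 30 kb and 0% above, and for NG 7-Days against NG 1-Day 0%, 4% and 0%. For NG 1-Day against Controls the order held, with 2.15%, 1.11%, 0.508% and 0.142% from the shortest class up and 0% of members. For NG 5-Days against Controls it did not, since 0% from 10 to under 15 kb and 1.04% of members, a single transcript, were called. For NG 7-Days against Controls the shares were 0.0279% under 2 kb, 0.00676% from 2 to under 5 kb and 0% in every longer class.

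**Figure D2:**
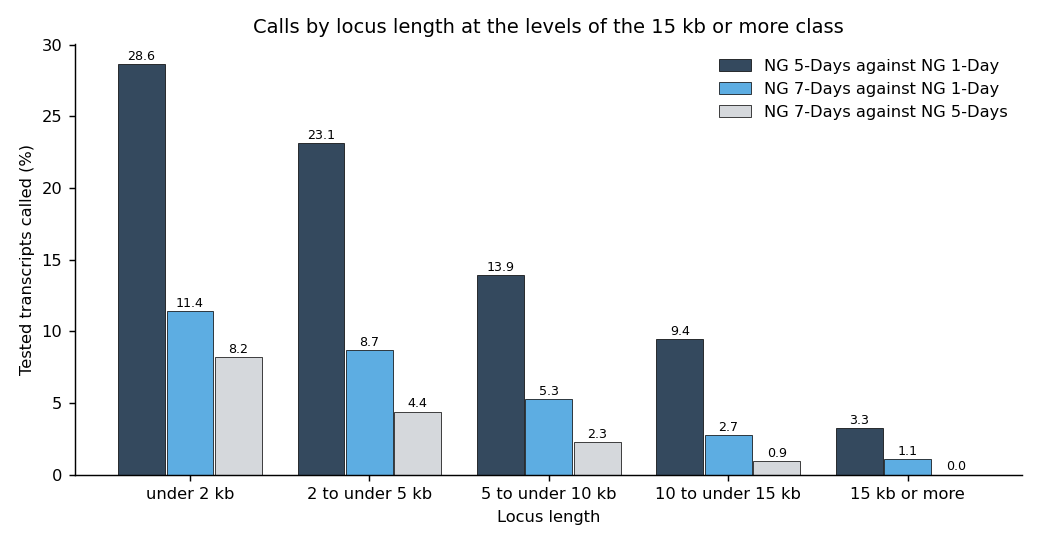
Percent of tested transcripts called at an adjusted p under 0.05 by the authors' deposited test, by locus length, for the 3 comparisons between NG days; each shorter class is weighted to the levels of the members in the class of 15 kb or more. In all 3 comparisons the bars descend from the shortest to the longest class, from 28.6% to 3.26% for NG 5-Days against NG 1-Day.

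The differences themselves were smaller as well. The median size of the log2 fold change among tested members was 0.232 from NG 1-Day to NG 5-Days, where matched shorter loci had 0.344. It was 0.171 against 0.276 for NG 7-Days against NG 1-Day and 0.137 against 0.194 for NG 7-Days against NG 5-Days. Against Controls the members had 0.107 for NG 1-Day, 0.148 for NG 5-Days and 0.129 for NG 7-Days, and the matched shorter loci 0.141, 0.271 and 0.194. For each transcript the highest of the 4 levels was also divided by the lowest. Over the 90 members with a usable error in every condition the median of this ratio was 1.21, against 1.35 for shorter loci at matched level. Of the 90, 54 stayed within 1.25-fold (60.0% against 36.3% of matched shorter loci) and 76 within 1.5-fold (84.4% against 63.7%). The gap narrowed at the wide end, where 88.9% stayed within 2-fold against 82.6%.

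By the median of this ratio, lone and sharing members both varied less than their matched counterparts. For lone members it was 1.18 against 1.30 for matched lone transcripts of shorter loci, and 43 of the 44 with usable errors stayed within 1.5-fold, 97.7% against 69.4%. The 44 leave out PGSC0003DMG400027247, PGSC0003DMG400016293 and PGSC0003DMG400008551, which were not tested in every comparison. Of all 47 lone members, 44 stayed within 1.5-fold and 3 had a range of 2-fold or more. The matched shorter loci were filtered in the same way as the 44. Members that share a locus had a median of 1.25 against 1.39, but 80.4% of them stayed within 2-fold against 82.4% of matched shorter loci. In the 2 lowest classes of level, with 6 members and 1 member, members had the wider median range, 2.18 against 1.94 and 2.68 against 1.84. By length the matched medians went from 1.53 under 2 kb to 1.37, 1.27 and 1.24 in the next 3 classes, and the members had 1.23 from 15 to under 20 kb and 1.16 from 20 to under 30 kb. The class of 30 kb or more stood higher at 1.26, but it holds 12 transcripts, of which 8 come from the shared loci on chromosomes 1 and 11.

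**Figure D3:**
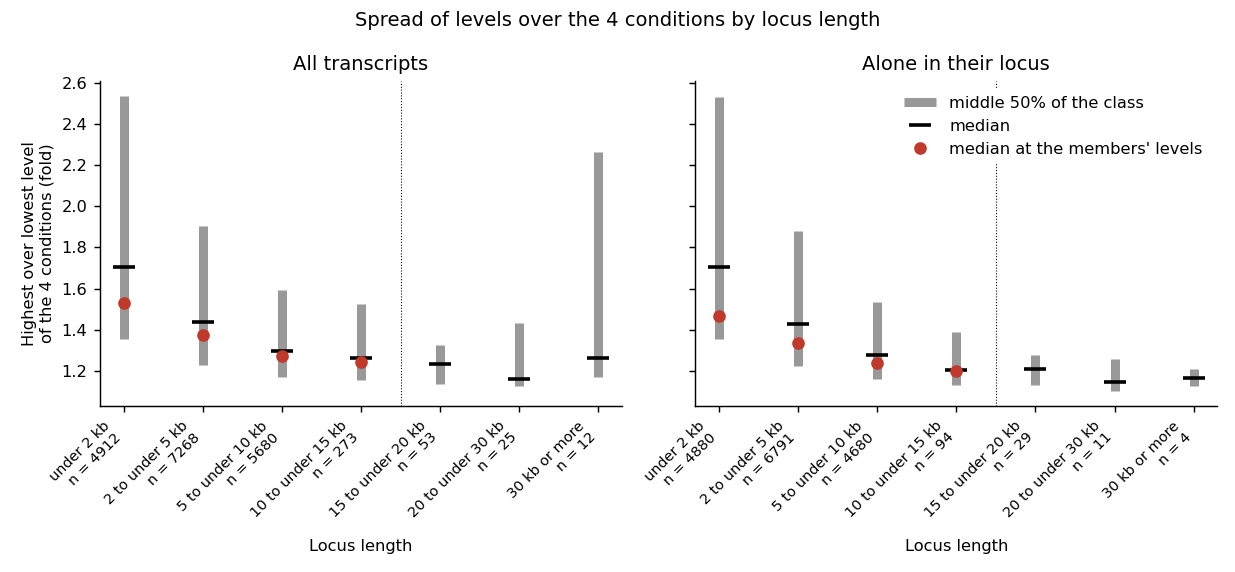
Highest over lowest of the 4 levels (fold) by locus length, for all transcripts with usable errors and for those alone in their locus; bars span the middle 50% of a class, black ticks are medians and red points are medians at the members' levels, and the dotted line marks 15 kb. In both panels the medians step down over the 4 classes under 15 kb and then show no steady order, and the bar of the 12 transcripts of 30 kb or more is wide only where shared loci are included.

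Precision differed along with length, and its part in the spread was not tested. The standard errors that the authors' statistics imply had member medians on the log2 scale of 0.40, 0.19, 0.10 and 0.27, where matched shorter loci had 0.47, 0.20, 0.12 and 0.26. In 3 of the 4 conditions members thus had the smaller error. For NG 5-Days against NG 1-Day the median size of the test statistic was 0.865 in members and 1.31 in matched shorter loci. In lone members and their matched counterparts it was 1.06 and 1.36. For NG 7-Days against NG 5-Days it was 0.364 in members and 0.607 in matched shorter loci. In lone members and their matched counterparts it was there 0.592 and 0.602. Members that share a locus had larger errors than their matched counterparts, with 0.67, 0.30, 0.17 and 0.46 against 0.56, 0.24, 0.14 and 0.30.

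The lone transcripts had small differences that mostly went the same way. Of the 47, 41 lay lower in NG 1-Day than in Controls, by a median log2 difference of -0.09. In NG 5-Days 38 of the 47 lay above their NG 1-Day level, with a median of 0.20 or 1.15-fold, and 40 of the 47 then lay lower in NG 7-Days, with a median of -0.15. The highest level was in NG 5-Days for 30 of the 47 and the lowest in NG 1-Day for 26. These 3 comparisons share conditions, so they do not count as separate observations, and in only 1 of the 47 was any of the differences called.

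Shorter loci as a whole were near an even split at the same level, but the longest of them leaned the same way. Among tested lone transcripts 13.6% of members and 48.0% of matched shorter loci lay higher in NG 1-Day than in Controls. For NG 5-Days against NG 1-Day the shares higher were 79.5% and 48.2%, and those higher on going to NG 7-Days 13.0% and 49.6%. The shares were graded by length. In NG 1-Day against Controls the matched share higher was 30.7% from 10 to under 15 kb. From NG 1-Day to NG 5-Days the matched shares higher were 40.6%, 47.9%, 52.5% and 62.3% in the 4 shorter classes, and from NG 5-Days to NG 7-Days they were 56.9%, 51.6%, 43.6% and 18.4%. Among members that share a locus, NG 5-Days was above NG 1-Day in 26 of the 61 with levels above 0 in both. With other scalings of the conditions the count was 25 with median centring, 17 with equal median levels and 31 with equal summed levels. As deposited, NG 7-Days was below NG 5-Days in 34 of 60.

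These leans are small enough that scaling matters. With the conditions put on equal median levels, a shift of 0.15 on the log2 scale between NG 1-Day and NG 5-Days, 28 of the 47 lone transcripts in place of 38 lay higher in NG 5-Days and 32 in place of 41 lay lower in NG 1-Day than in Controls. The majority kept its side in these 2 comparisons and in NG 7-Days against NG 5-Days under all 3 other scalings tried. In NG 5-Days against Controls it turned, from 34 higher as deposited to 20, and in NG 7-Days against NG 1-Day from 29 to 16, so no direction is given for those 2. In NG 7-Days against Controls 32 of the 47 lay lower as deposited, by a median log2 difference of -0.03. Under the other scalings 32 to 36 of them lay lower. Of the members that share a locus, 37 of 62 lay lower there as deposited.

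**Figure D4:**
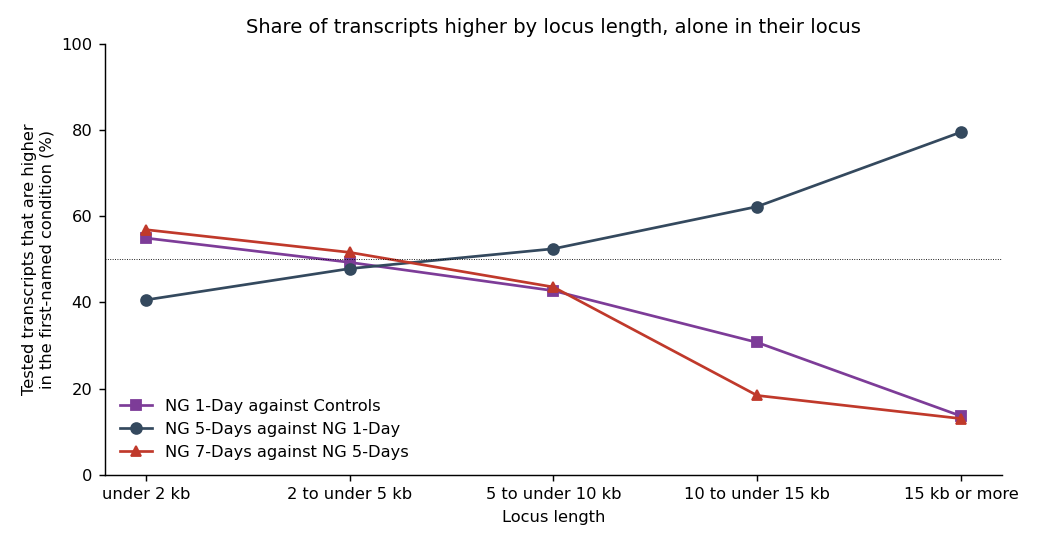
Percent of tested transcripts alone in their locus that lay higher in the first-named condition, by locus length, at the members' levels, for 3 comparisons as deposited; the dotted line marks 50%. The line for NG 5-Days against NG 1-Day climbs with length to 79.5% and the other 2 lines descend to 13.6% and 13.0%.

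The member with the most calls was PGSC0003DMG400032202, alone in chr1:1398742-1422013. Its levels were 19.7, 13.8, 51.3 and 28.6. NG 5-Days stood above the other 3 conditions and NG 1-Day below them. In the authors' deposited table it rose from Controls to NG 5-Days with a log2 fold change of 1.38 (standard error 0.39, adjusted p = 0.00900). With p-values adjusted within that comparison alone it was not called. Against NG 1-Day, NG 5-Days was higher by 1.90 on the log2 scale (standard error 0.19), with the adjusted p listed as 0 in the authors' deposited table. Against NG 1-Day, NG 7-Days was higher by 1.05 (standard error 0.32, adjusted p = 0.0203 in the authors' deposited table). The difference of NG 7-Days from NG 5-Days, -0.85 on the log2 scale, missed the threshold at an adjusted p of 0.0508 in the authors' deposited table. The nearest long locus, PGSC0003DMG400032200 at chr1:1331633-1353142, lies 45600 bases before it and had 44.2, 41.6, 46.2 and 43.2, with no call. No other listed locus lies between them, which is so for no other pair of long loci.

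PGSC0003DMG400009892 had the widest span of the called members. Its levels were 1.41, 0.159, 6.46 and 8.52. Between NG 1-Day and NG 5-Days it rose by 5.34 on the log2 scale (standard error 1.68, adjusted p = 0.0284 in the authors' deposited table), starting from a level close to 0. The difference of NG 1-Day from Controls, -3.14 on the log2 scale, had an adjusted p of 0.769 in the authors' deposited table, and the comparisons with NG 7-Days were marked as not tested. It shares chr4:63498592-63513615 with PGSC0003DMG400009964, which had 10.4, 10.2, 13.5 and 11.5 and no call.

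The fall was that of PGSC0003DMG402019060, with levels of 1.58, 2.53, 0.946 and 1.05. Between NG 1-Day and NG 5-Days its log2 fold change was -1.42 (standard error 0.39, adjusted p = 0.00785 in the authors' deposited table). It shares chr11:16237012-16253419 with PGSC0003DMG401019059, at 2.10, 1.85, 1.03 and 2.26, and PGSC0003DMG402019059, at 0.369, 0.325, 0.227 and 0.382, neither of which was called. All 3 had their lowest level in NG 5-Days.

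**Figure D5:**
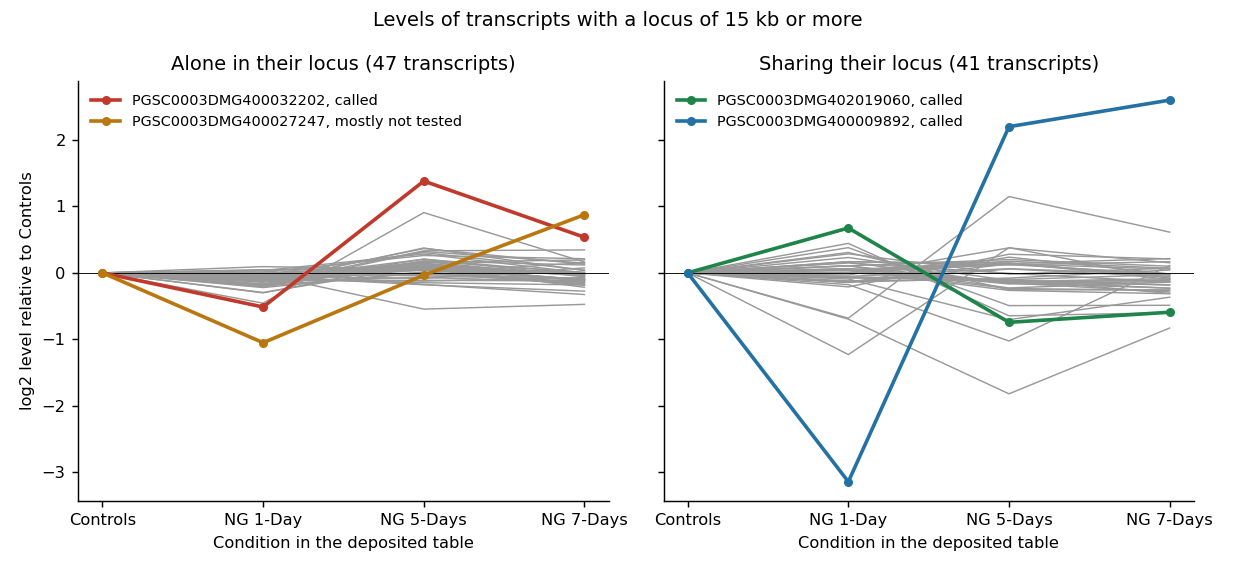
Log2 level relative to Controls in the 4 conditions for the 47 lone members and for the 41 sharing members with a mean level of at least 1; the 3 called members and the mostly untested PGSC0003DMG400027247 are coloured and named. Most grey lines of the lone members stay close together, and PGSC0003DMG400032202 and PGSC0003DMG400027247 leave the bundle. Of the 47 lone members, 41 lay below Controls in NG 1-Day and 30 had their highest level in NG 5-Days.

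Another lone transcript varied as much but was left almost untested by the table. PGSC0003DMG400027247 (chr4:8136952-8154078) had 37.7, 18.2, 36.8 and 69.0, so NG 1-Day was lowest and NG 7-Days highest. Only NG 5-Days against Controls was tested, with a log2 fold change of -0.03. The untested lines still carry a p-value in the authors' deposited table, 1.09e-06 for NG 5-Days against NG 1-Day and 2.74e-09 for NG 7-Days against NG 1-Day, and the sources used here do not say why they were left out. PGSC0003DMG400016293 (chr6:35379461-35395721), with 1.81, 1.32, 3.40 and 2.03, was also untested from NG 1-Day to NG 5-Days. These 2 and PGSC0003DMG400032202 were the 3 lone members with a 2-fold or wider range; they were picked out for that after their values were seen.

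Transcripts of a shared locus often lay on different sides. Between NG 1-Day and NG 5-Days all tested transcripts lay on the same side in 6 of the 16 shared long loci with at least 2 tested. In shorter shared loci that was so in 60.2% of 726, most of which hold only 2 tested transcripts, so that a single side is easier to reach. The count in the other 5 comparisons was between 5 and 7 of 15 or 16 long loci.

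Long loci occurred on all 12 chromosomes. Chromosome 1 had 32 members in 14 loci, 0.710% of its 4506 transcripts. Chromosome 11 had 13 in 8 loci (0.561% of 2319), and chromosome 9 had 2 in 2 loci (0.0727% of 2750). Shared loci raise the counts of members above those of loci. The median distance to the nearest other locus was 1785 bases for the long loci, 3269 for those with a lone transcript and 1009 for shared ones, against 2729 for shorter loci. Within 500 kb on either side lay a median of 74 other loci, against 70 around shorter loci.

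Levels next to the 15 kb limit were mixed on both sides. Just inside it were PGSC0003DMG400008551 (chr12:53119628-53134647, 15019 long), at 15.2, 12.4, 16.3 and 13.1, and the chromosome 4 pair at 15023. Just outside, at 14936, was chr2:39232868-39247804 with 4 transcripts. The values of PGSC0003DMG400012686 are not given here. PGSC0003DMG400012685 had 84.1, 84.3, 87.8 and 83.4, PGSC0003DMG400003536 had 0.326, 0.308, 0.284 and 0.230, and PGSC0003DMG400003614 had 0.251, 0.138, 0.156 and 0.145. None of the last 3 was called.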

How the data were processed

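The authors' deposited table holds 1 line per transcript and comparison. Per the file headers it has the Cuffdiff layout: a level in both conditions (a signal whose unit is not named), a log2 fold change, a test statistic, a p-value, a q-value and a call. The sources used here do not give the aligner, counter, versions, filters or genome build, so coordinates and locus ends are those of the deposited table, and depth is unknown. Adjusting the deposited p-values by Benjamini-Hochberg over all 118862 tested lines gave the deposited q-values to within 3.32e-06; the highest p called was 0.00297.

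From these values were computed locus length (end minus start), sharing of coordinates, counts of calls and medians. Shorter loci were weighted over 10 classes of mean level to the members' distribution. A standard error per transcript and condition was solved from the ratios of fold change to statistic for 18223 transcripts, 90 of them members, with a median relative residual of 1.58e-06. These are the authors' model errors. Of all transcripts 13 were left out of level summaries, 8 whose lines disagreed and 5 marked as too abundant; 0 were members. Of 32873 genes in the reference table for assembly SolTub_3.0, 0 matched the identifiers, so no gene name or sequence is given.

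Named transcripts were those with the 5 longest loci, the 5 highest mean levels, a call, or one of the 3 places next to the limit on each side. Counts of 5 or fewer called members were named in full. The members and lists were chosen with earlier results of these data known. The scripts were tested on simulated data. Python 3.11.15, numpy 2.4.6, pandas 2.3.3, scipy 1.17.1 and matplotlib 3.10.9 were used.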

Additional observations from a re-analysis of the deposited data

Results flagged for a closer look

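In the authors' deposited table, 3 long loci differed between NG conditions by the direct test of those conditions, which is a test of whether their changes from the shared Controls differ. PGSC0003DMG400009892 rose by 5.34 on the log2 scale between NG 1-Day and NG 5-Days, starting from a level near 0. Its level was below Controls in NG 1-Day and above them in NG 5-Days. Neither difference from Controls was called, with adjusted p of 0.769 and 0.703 in the authors' deposited table. PGSC0003DMG400032202 rose by 1.90 to NG 5-Days and by 1.05 to NG 7-Days, both from NG 1-Day and again by the authors' deposited table. PGSC0003DMG402019060 had a log2 fold change of -1.42 for NG 5-Days against NG 1-Day in the authors' deposited table, with levels under 3 throughout. The table has 1 value per condition, so the spread within a group is unknown.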

How the results depend on the processing

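No paired analysis was possible because the table holds no value per library; for the same reason no replicate could be left out. Adjusted within its own comparison alone, NG 5-Days against Controls gave 0 called members in place of 1 (PGSC0003DMG400032202) and NG 5-Days against NG 1-Day gave 6 in place of 3. With untested lines included, NG 5-Days against NG 1-Day gave 5 (with PGSC0003DMG400016293 and PGSC0003DMG400027247 added), NG 7-Days against NG 1-Day gave 3 in place of 1 (with PGSC0003DMG400009892 and PGSC0003DMG400027247 added), and NG 7-Days against NG 5-Days gave 1 (PGSC0003DMG400027247) in place of 0. At an adjusted p under 0.01, NG 7-Days against NG 1-Day gave 0. With a pseudocount of 1 or median centring no count moved by over 1.5 times; these could be run only on the 90 members with usable errors, without PGSC0003DMG400009892. The gap in percent called to matched shorter loci from NG 1-Day to NG 5-Days was -17.0 points, and between -19.9 and -16.1 with 20 classes, classes of the Controls level, loci of 20 kb or more, shorter loci of 2 to under 5 kb, or loci that overlap no other. The one gap that changed sign was NG 5-Days against Controls, from -0.753 to 0.944 points with loci of 20 kb or more. The scalings of the lone transcripts were chosen after seeing the data: 5 to 15 of 47 lay higher in NG 1-Day than in Controls, 28 to 44 for NG 5-Days against NG 1-Day, and 5 to 8 for NG 7-Days against NG 5-Days. Unknown depth, 1 value per condition and few members in each class of length limit these values.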
